A study of Mus musculus with 12 samples.

Results

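Gap junctions are clusters of channels that join the cytoplasm of neighbouring cells, and the connexin genes examined here encode their subunits. The set was given by name as the connexin genes Gja1, Gja4, Gja5, Gjb2, Gjb5 and Gjc1 and the pannexin gene Panx1, 7 genes in all. Of these, 6 were among the 17995 genes measured by RNA-seq in 12 libraries, and Gjb2 was not analysed here. The libraries came from 2 mouse lines, C18-4, derived from spermatogonial stem cells, and TM4, derived from Sertoli cells, the strain label of both being IRC. Each line was treated with shNC, the control construct in a lentiviral vector, or with shM5, a mixture of 3 shRNAs in the same vector against Chrm5, the gene of the muscarinic acetylcholine receptor M5. The sample labels name these groups C3NC and CM5 for C18-4 cells and TM3NC and TMM5 for TM4 cells, with 3 libraries in each group. Every group was thus a transfected culture of an established line grown in serum, and no group held untreated cells or testis tissue. The labels do not say whether the 3 libraries of a group came from separate cultures, so p-values measure the spread between these libraries, which may be technical. The study stained the proteins of Gja1 and Gja4 among other junction proteins and reported both decreased by shM5 in C18-4 and in TM4 cells. The comparisons below concern the mRNA of the whole set, not protein.

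Connexin proteins assemble into a ring-shaped hemichannel in the membrane of a cell, and it docks with a hemichannel of the neighbouring cell to make a channel for ions and small metabolites. In the testis, connexin 43, the product of Gja1, joins Sertoli cells to each other at the blood-testis barrier and to spermatogonia, and its loss from Sertoli cells is known to arrest germ cell development. Pannexins share the membrane topology of connexins but form single-membrane channels that release ATP rather than docked junctions.

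The docking surface of connexins is held by cysteines in 2 extracellular loops. It was read from the coding sequence to show what the members share and how far the reads of one could be taken for another. All 5 connexin members measured held the pattern of 3 cysteines of the first loop once, with 36 bases from the first cysteine codon to the last. They are written from 5′ to 3′ on the coding strand, with the cysteine codons in capitals.
Gja1 first loop: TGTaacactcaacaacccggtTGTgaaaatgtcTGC
Gjc1 first loop: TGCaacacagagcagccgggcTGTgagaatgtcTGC
Gjb5 first loop: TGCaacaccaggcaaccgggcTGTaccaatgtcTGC
Gja4 first loop: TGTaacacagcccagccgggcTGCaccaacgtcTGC
Gja5 first loop: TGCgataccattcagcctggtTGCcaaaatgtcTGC
The stretches lie in coding exons of mouse build GRCm38, annotation GENCODE M21, at chr10:56387706-56387741 (+) for Gja1, chr11:102800984-102801019 (-) for Gjc1, chr4:127356158-127356193 (-) for Gjb5, chr4:127312774-127312809 (-) for Gja4 and chr3:97050788-97050823 (+) for Gja5. The 3 cysteine codons stood at the same places in all of them, and of the 36 bases 28 equalled those of Gja1 in Gjc1, 26 in Gjb5, 25 in Gja5 and 24 in Gja4. The pattern was not found in Panx1. Despite this likeness, none of the 3148 stretches of 35 bases in the Gja1 transcript occurred in a transcript of another gene, and the same held for Gja4 and Gjb5. In Gjc1, 22 of 2280 stretches occurred elsewhere, in Panx1 2 of 5698, and in Gja5 921 of 3634, shared with Gpr89 and Zfp697. Only exact matches of the transcript chosen for each member were counted. The study's alignment allowed mismatches, so this count cannot exclude reads placed on the wrong gene. Gja4 and Gjb5 lie on chromosome 4, whereas Gja1, Gja5, Gjc1 and Panx1 lie on chromosomes 10, 3, 11 and 9.

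Before the members, 4 properties of the libraries are given because they touch every result. Chrm5 itself was listed at 0.01 RPKM (reads scaled for gene length and library size) in C18-4 shNC replicate 2 and TM4 shNC replicate 1 and at 0 in all others, so the mRNA of the targeted gene could not check the labels. In C18-4 cells both libraries with the number 3 stood apart: their root mean square log2 difference from the others of their own group was 0.376 to 0.438, against 0.200 and 0.201 between replicates 1 and 2. In TM4 cells, shNC replicate 3 differed from shNC replicates 1 and 2 by 0.640 and 0.642 but from the shM5 libraries by only 0.202 to 0.257, so the library labelled shNC 3 went against its label. The cell type labels were checked with marker lists: of 9 germ cell markers with values only Id4 reached a mean of 0.5 RPKM in C18-4 cells, with Kit and Stra8 at 0, while the Sertoli cell marker Wt1 stood at 53.9 to 72.3 RPKM there and at 0.15 or less in TM4 cells, whose Sox9 was 1.11 to 1.74 RPKM. Krt18, an epithelial keratin, was 68.3 to 101 RPKM in C18-4 cells and 0.05 or less in TM4 cells. The rest of the epithelial list was far lower in C18-4 cells. Krt8 was 2.06 to 3.26 and Epcam 1.15 to 2.32 RPKM there, Krt14 at most 0.62, Cdh1 at most 0.07 and Krt5 at 0.

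Gja1 was the most abundant connexin mRNA of TM4 cells per length, and had the highest mean RPKM of the connexins over the 12 libraries. In C18-4 cells its RPKM was 31.6, 31.3 and 13.7 in shNC replicates 1, 2 and 3 and 29.0, 29.1 and 12.2 in shM5 replicates 1, 2 and 3. In TM4 cells its RPKM was 84.0, 87.2 and 127 with shNC and 109, 110 and 116 with shM5. Every TM4 library lay above every C18-4 library, and within each line the shNC and shM5 libraries overlapped. The mean was 25.5 ± 10.2 RPKM (SD, n = 3) in C18-4 shNC and 99.5 ± 24.2 in TM4 shNC. The wide spread in C18-4 cells came from the number 3 libraries, in which Gja1 was 2.29-fold below the mean of replicates 1 and 2 with shNC and 2.38-fold below with shM5.

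Gjc1 encodes connexin 45, which forms channels of low conductance and is best known from the heart and vascular wall. In C18-4 cells its RPKM was 20.4, 22.5 and 21.8 with shNC and 23.3, 23.7 and 23.5 with shM5, so all shM5 libraries lay above all shNC libraries by a small step. In TM4 cells its RPKM was 11.4, 12.2 and 16.8 with shNC and 16.5, 16.5 and 15.7 with shM5. There the third shNC library exceeded all shM5 libraries and the groups overlapped. Unlike Gja1, Gjc1 was nearly level in the number 3 libraries of C18-4 cells, with 1.02 times the mean of replicates 1 and 2 in shNC and 0.999 times in shM5.

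Panx1 was low but present in every library. Its RPKM was 3.72, 2.38 and 2.79 in C18-4 shNC and 3.44, 3.54 and 3.34 in C18-4 shM5. In TM4 cells it was 0.82, 1.09 and 1.87 with shNC and 1.94, 2.38 and 1.86 with shM5. The groups overlapped in both lines, in TM4 cells only through the third library of each group.

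Gjb5, which encodes a connexin of skin and placental trophoblast, was seen in C18-4 cells only. Its RPKM there was 2.53, 3.37 and 2.10 with shNC and 2.74, 2.61 and 1.76 with shM5, and it was listed at 0 in all 6 TM4 libraries. The number 3 library was the lowest of both C18-4 groups.

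Gja4 and Gja5, also connexin genes of the vascular wall, were near or at 0, unlike Gjc1. Gja4, the gene of connexin 37, which also couples the oocyte to its granulosa cells, was listed at 0.11, 0.27 and 0.24 RPKM in C18-4 shNC, 0.12, 0.04 and 0.43 in C18-4 shM5, 0, 0 and 0.07 in TM4 shNC, and 0.04, 0.04 and 0 in TM4 shM5. The values of the C18-4 groups overlapped widely, and so did those of the TM4 groups. The 3 TM4 shNC values all lay below the 3 C18-4 shNC values, and the number of reads behind these low values is unknown. Gja5, the gene of connexin 40, was listed at 0 in all 12 libraries. Of 5 endothelial markers, Tie1 was at 0 throughout, Pecam1 was at most 0.12 RPKM, and the summed level ranged from 0.95 to 1.24 RPKM in C18-4 shNC and from 0.19 to 0.44 RPKM in TM4 shNC.

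**Figure D1:**
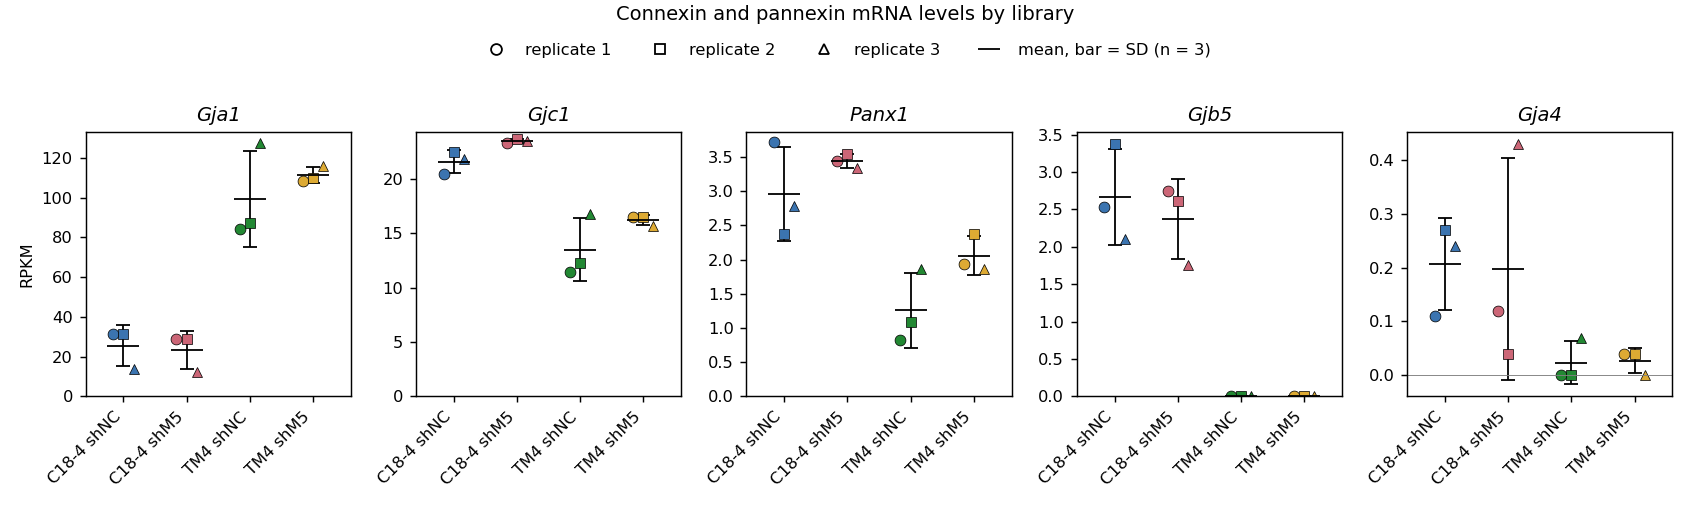
RPKM on a linear axis for Gja1, Gjc1, Panx1, Gjb5 and Gja4 in the 4 groups, with 1 point per library, the replicate number as the shape, and mean ± SD as bars (n = 3). The third TM4 shNC library (triangle) sits with the shM5 libraries for Gja1, Gjc1 and Panx1, and the third C18-4 libraries sit low for Gja1 and Gjb5.

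Over all 15 connexin genes with values, the lines differed in which connexins made up the mRNA. The summed connexin level was 47.6 to 76.4 RPKM in C18-4 shNC and 45.4 to 67.8 in C18-4 shM5, against 96.7 to 147 in TM4 shNC and 127 to 135 in TM4 shM5. Gja1 took 28.8 to 42.4% of the sum in C18-4 shNC and 86.4 to 86.8% in TM4 shNC. Its share was 26.8 to 43.4% in C18-4 shM5 and 85.2 to 85.6% in TM4 shM5. Each TM4 shM5 library thus lay below each TM4 shNC library, shNC replicate 3 included, by a small step. Among single genes tested in TM4 cells, 26.8% had groups that did not overlap, in one direction or the other. The share itself was not tested, and the RPKM of Gja1 overlapped between the TM4 groups. Gjc1 took 27.4 to 51.7% in the 6 C18-4 libraries, its highest shares being 45.8 and 51.7% in the number 3 libraries, and 11.4 to 12.9% in the 6 TM4 libraries. The ratio of Gja1 to Gjc1 was 6.59 to 7.59 in TM4 cells and 0.519 to 1.54 in C18-4 cells.

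**Figure D2:**
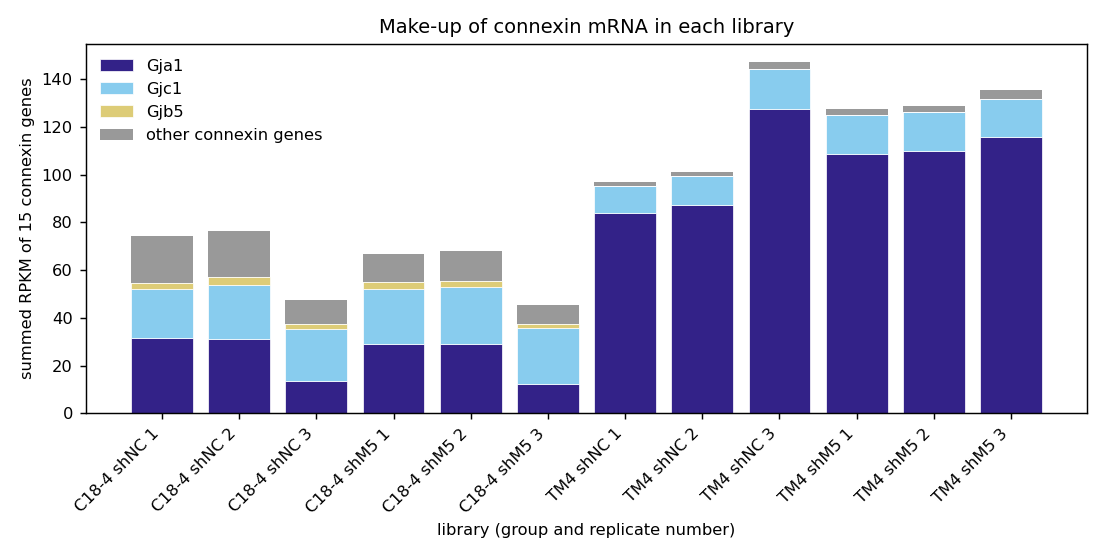
Summed RPKM of the 15 connexin genes in each of the 12 libraries, stacked by gene, with Panx1 left out. Gja1 fills most of each TM4 bar, while C18-4 bars divide mainly among Gja1, Gjc1 and the pooled other connexins and are shortest in both number 3 libraries.

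The difference between the lines was tested in the 6 shNC libraries with limma on log2(RPKM + 0.1), with Benjamini-Hochberg adjustment over 11810 genes of at least 0.5 RPKM on average. Of these genes 20.5% were called higher and 34.7% lower in TM4 cells at an adjusted p below 0.05, so a call between the lines was common. Gja1 was higher in TM4 cells by 2.03 on the log2 scale (SE 0.35, limma adjusted p = 0.00238), which is 4.09-fold with a 95% interval of 2.32 to 7.20. Gjc1 was lower in TM4 cells, with a log2 difference of -0.70 (SE 0.16, limma adjusted p = 0.0102), 1.62-fold below C18-4 cells with an interval of 1.24 to 2.12. Panx1 was lower too, with a log2 difference of -1.22 (SE 0.31, limma adjusted p = 0.0145), 2.33-fold below with an interval of 1.39 to 3.91. That call on Panx1 rested on C18-4 shNC replicate 1, without which the log2 difference was -1.05 and the limma adjusted p 0.0576. Gjb5 was called lower at a limma adjusted p of 2.95e-06, but it is listed at 0 in TM4 cells and passed the filter only through C18-4 cells, so no fold is given. Gja4 and Gja5 fell under the filter. With no filter on low values, when 45.9% of genes were called, Gja4 was lower in TM4 cells with a log2 difference of -1.32 (limma adjusted p = 0.0126). Its TM4 shNC values were 0, 0 and 0.07 RPKM, so the size of that difference depends on the added 0.1. Without TM4 shNC replicate 3 the log2 differences were 1.84 for Gja1, -0.86 for Gjc1 and -1.53 for Panx1, all 3 called. The median log2 difference of all genes was -0.15, and after scaling each library to a common median the differences were 2.16 for Gja1, -0.57 for Gjc1 and -1.09 for Panx1, each still called. Since this is bulk RNA of whole cultures, fewer expressing cells and less RNA per cell cannot be told apart.

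**Figure D3:**
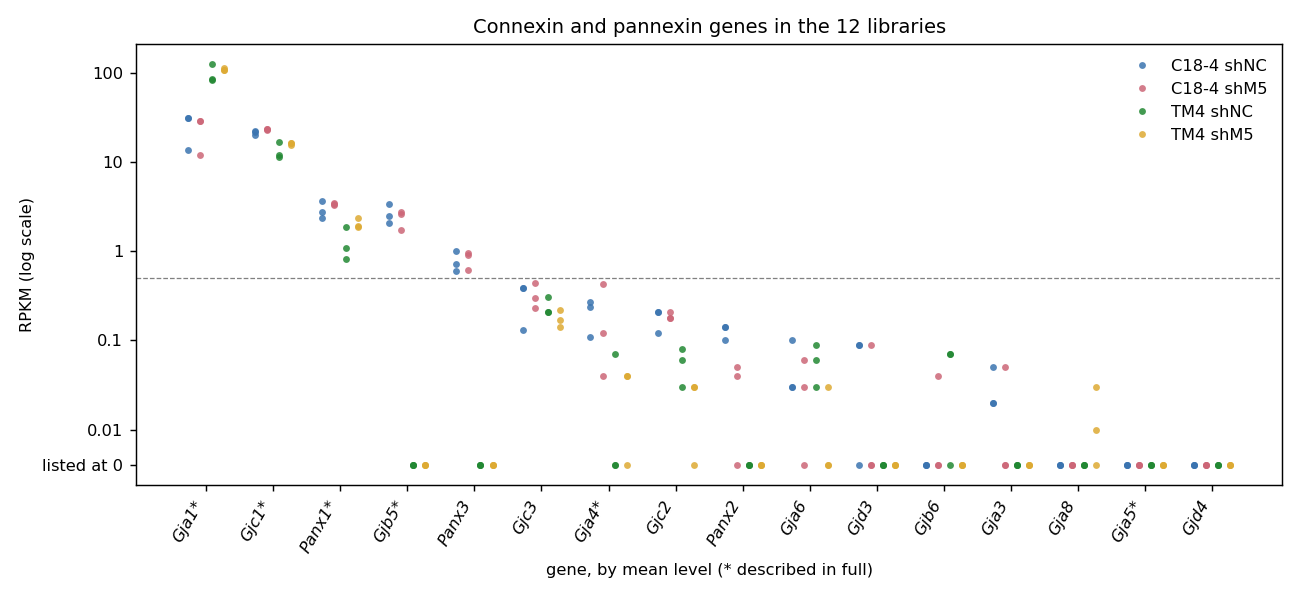
RPKM on a log axis of connexin and pannexin genes with values, in order of mean level, with 1 point per library coloured by group; values of 0 are drawn on the line marked as listed at 0 and the dashed line marks 0.5 RPKM. Among the genes shown above 0.5 RPKM only Gja1 is higher in TM4 cells, whereas Gjc1, Panx1, Gjb5 and Panx3 are higher in C18-4 cells.

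In C18-4 cells no member was called between shM5 and shNC, where 0.586% of 11611 genes were called. Gja1 differed by -0.13 on the log2 scale (SE 0.43, limma adjusted p = 0.956), and the 95% interval of -1.15 to 0.89 runs from a level 2.22-fold lower to one 1.85-fold higher. For Gjc1 the log2 difference was 0.12 (SE 0.07, limma adjusted p = 0.580), with an interval of -0.05 to 0.29. Its 3 shM5 libraries all lay above the 3 shNC libraries, as those of 18.9% of the genes tested did in one direction or the other, and it was the only member of the 4 tested with groups that did not overlap. The log2 difference was 0.23 for Panx1 (SE 0.18, limma adjusted p = 0.696) and -0.16 for Gjb5 (SE 0.24, limma adjusted p = 0.867).

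Because libraries of C18-4 cells with the same number deviated together, the comparison was also fitted with the number as a block. The block raised the share of genes called to 11.9%, yet still no member was called. The interval for Gja1 narrowed to -0.26 to -0.01, with an unadjusted limma p of 0.0427 and a limma adjusted p of 0.153. In the same fit 29.7% of all genes had an unadjusted p below 0.05, so such an interval was common. The limma adjusted p with the block was 0.195 for Gjc1, 0.306 for Panx1 and 0.450 for Gjb5. Leaving out the number 3 libraries of both groups, a choice made after seeing the data, gave -0.11 for Gja1, 0.13 for Gjc1, 0.22 for Panx1 and -0.12 for Gjb5, none called, while 3029 genes were called.

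In TM4 cells no gene was called between shM5 and shNC (0%, limma, 11016 genes tested), although 2866 genes had an unadjusted p below 0.05. For Panx1 the log2 difference was 0.73 (SE 0.30), with an unadjusted p of 0.0451 and a limma adjusted p of 0.192. The log2 difference was 0.28 for Gjc1 (SE 0.15, limma adjusted p = 0.230) and 0.19 for Gja1 (SE 0.16, limma adjusted p = 0.410). No member had groups that did not overlap, as 26.8% of all genes did.

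These values rested on shNC replicate 3. Without it, shM5 was above both shNC libraries for Gja1, Gjc1 and Panx1, and all 3 were called higher with shM5, in a fit that called 67.4% of all genes in one direction or the other. Gja1 then rose by 0.38 on the log2 scale (SE 0.04, limma adjusted p = 0.000176), which is 1.30-fold. Gjc1 rose by 0.45 (SE 0.06, limma adjusted p = 0.000339) and Panx1 by 1.04 (SE 0.18, limma adjusted p = 0.00141). With the third shM5 library left out as well, also chosen after seeing the data, the differences were 0.35, 0.48 and 1.10. At that share of called genes a call says little about these 3 in particular. Leaving out any other single TM4 library gave no called gene.

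**Figure D4:**
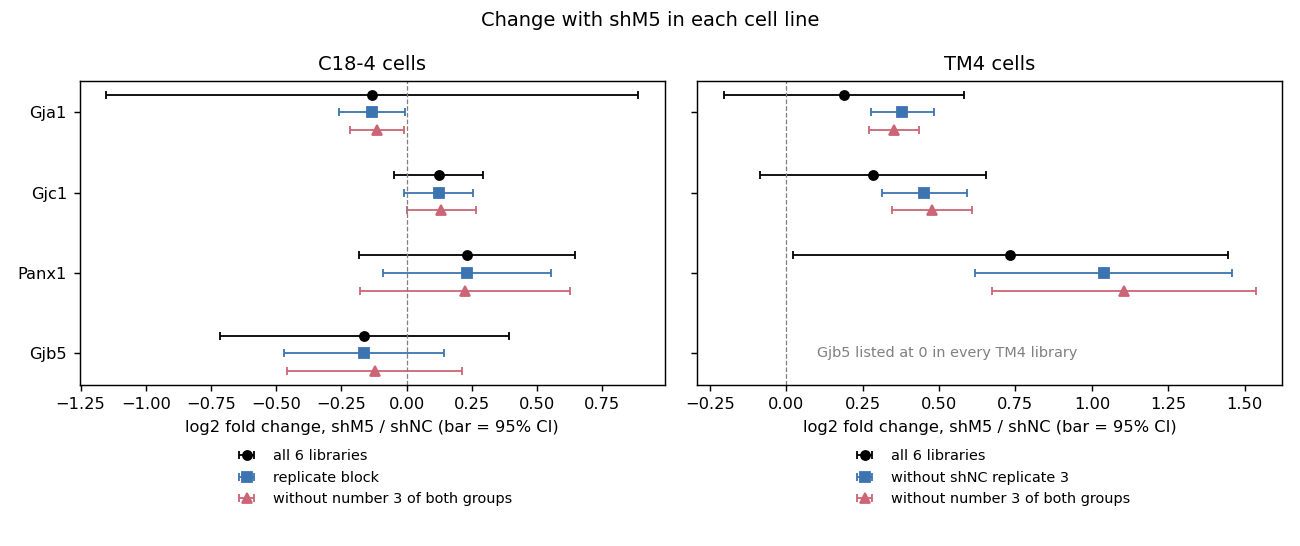
Log2 fold change of shM5 over shNC with its 95% interval in C18-4 cells (left) and TM4 cells (right), for Gja1, Gjc1, Panx1 and Gjb5, under 3 fits marked by shape. In C18-4 cells the interval of Gja1 narrows with the block and ends just below 0, and in TM4 cells the intervals of Gja1, Gjc1 and Panx1 lie above 0 once shNC replicate 3 is left out, that of Panx1 also before.

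Whether the lines differed in their response was tested as the shM5 effect in TM4 cells minus that in C18-4 cells, in which 0.102% of 11773 genes were called. The log2 difference of effects was 0.32 for Gja1 (limma adjusted p = 0.717), 0.16 for Gjc1 (limma adjusted p = 0.583) and 0.50 for Panx1 (limma adjusted p = 0.397), and none was called. Without TM4 shNC replicate 3, when 38% of genes were called, it was 0.33 for Gjc1 (limma adjusted p = 0.0162) and 0.81 for Panx1 (limma adjusted p = 0.0309), both called, and 0.51 for Gja1 (limma adjusted p = 0.482). With the block within each line as well, chosen after seeing the data, 54% of genes were called and so were all 3, at 0.48 for Gja1 (limma adjusted p = 0.000492), 0.35 for Gjc1 (limma adjusted p = 0.00784) and 0.87 for Panx1 (limma adjusted p = 0.010). Gjb5 could not be compared, being at 0 in TM4 cells.

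The members varied among libraries in pairs. Taking each library relative to the mean of its line, Gja1 and Gjb5 followed each other with r = 0.829 over the 12 libraries and Gjc1 and Panx1 with r = 0.840, whereas r was 0.262 between Gja1 and Gjc1. The libraries share their treatment and the number 3 deviations, and Gjb5 varied in 1 line only, so these values describe the 12 libraries. Among genes of at least 5 RPKM, the profile most like that of Gja1 belonged to Rpl36al (r = 0.979), Sfpq (0.974) and Srsf3 (0.972), of which Sfpq and Srsf3 encode splicing factors. For Gjc1 the closest were Pik3r4 (0.974), Stil (0.970) and Plekhg2 (0.968), for Panx1 Pex13 (0.960), Pik3c3 (0.955) and Ndufa4 (0.938), and for Gjb5 Pabpn1 (0.922), Metrnl (0.899) and Ddx5 (0.895).

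Connexins act together with scaffold proteins, with the trafficking machinery and with kinases that phosphorylate connexin 43, and these were described by lists. Among 12 scaffold and cytoskeletal partners, 8 were lower and 0 higher in TM4 than in C18-4 cells, where 34.7% of all genes were lower and 20.5% higher, with a median log2 difference of -0.77 against -0.15 over all genes. The largest were Ezr, which links membrane proteins to actin and brings protein kinase A to connexin 43, at 408 ± 42.4 RPKM (SD, n = 3) in C18-4 shNC and 65.0 ± 4.57 in TM4 shNC (log2 difference -2.65, limma adjusted p = 2.01e-06), and Dbn1, an actin-binding partner of connexin 43 (log2 difference -1.62, limma adjusted p = 0.00490). Ccn3, a secreted protein that binds connexin 43 (log2 difference -1.51), and Cdh2, the adherens junction cadherin (log2 difference -1.22), followed. Gja1 stood higher in the line in which these partners were lower.

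Of 10 genes for trafficking and turnover of connexins, 3 were higher in TM4 cells and 2 lower, beside 20.5% and 34.7% of all genes, with a median log2 difference of 0.02. Nedd4, a ubiquitin ligase that binds connexin 43, was 229 ± 9.84 RPKM (SD, n = 3) in C18-4 shNC and 417 ± 21.98 in TM4 shNC (log2 difference 0.86, limma adjusted p = 0.000178). Rab20 (0.87) and Ubqln4 (0.59) were higher as well, and Smurf2, another ubiquitin ligase, was lower by a log2 difference of -0.58. Of 17 kinases and phosphatases that act on connexin 43, 2 were higher and 9 lower, beside the same shares of all genes, with a median log2 difference of -0.41. The largest differences were in Csnk1d (-1.16), Cdk1 (-1.11), Ppp2ca (-0.79) and Prkacb (0.71), the last a catalytic subunit of protein kinase A and the only one of these 4 higher in TM4 cells.

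For Panx1 the list held 11 receptors for extracellular ATP and ectonucleotidases, of which 2 passed the filter. P2rx7, an ATP-gated channel known to act with Panx1, was 15.3 ± 3.58 RPKM (SD, n = 3) in C18-4 shNC and 3.29 ± 2.63 in TM4 shNC (log2 difference -2.88, limma adjusted p = 0.0392), a call lost with a replicate block. P2rx4 differed by 0.15 and was not called.

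With shM5, 0 genes of these 4 lists were called in either line when all libraries were used without a block. The list medians lay between -0.15 and 0.06 in C18-4 cells and between -1.63 and 0.13 in TM4 cells. With the block, when 11.9% of all genes were called, 2 of 12 partners rose in C18-4 cells, Ccn3 by 0.64 (limma adjusted p = 0.0296) and Mapre1, a microtubule end-binding protein that guides connexin 43 delivery, by 0.20 (limma adjusted p = 0.0372). Under the same fit 1 of 17 kinases and phosphatases was called, higher with shM5, and 0 of 10 trafficking genes were. In TM4 cells without shNC replicate 3, 9 of 12 partners were called, 6 higher and 3 lower, with Dbn1 higher by 1.06. Likewise 6 of 10 trafficking genes were called, 2 higher and 4 lower, and 12 of 17 kinases and phosphatases, 9 higher and 3 lower, led by Akt1 (0.96) and Csk (0.87), beside 67.4% of all genes. P2rx7 fell by 4.00 on the log2 scale and P2rx4 by 0.71 in that fit. Acta2, a marker of smooth muscle and myoid cells, moved with the same libraries, at 63.3 and 66.4 RPKM in TM4 shNC replicates 1 and 2, 140 in shNC replicate 3 and 142 to 194 with shM5, and in C18-4 cells at 15.9 to 23.7 RPKM with shNC and 34.6 to 61.8 with shM5. In TM4 cells 2 of the 4 markers of this list reached 0.5 RPKM, and their summed level was 64.8 to 143 RPKM with shNC and 145 to 198 with shM5. Their part in these results was not tested. Of the other 3 markers, Myh11 was at most 0.01 RPKM in TM4 cells, Des lay between 0.38 and 0.53, and Cnn1 was 0.59 and 0.95 in shNC replicates 1 and 2 and 2.36 to 3.48 in the other 4 libraries. In C18-4 cells these 3 did not follow Acta2, and their groups overlapped. Des was 4.26 to 6.6 RPKM there with shNC and 4.59 to 5.62 with shM5. Cnn1 was 3.22 to 3.41 with shNC and 3.24 to 3.66 with shM5, and Myh11 was at most 0.07.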

How the data were processed

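RNA-seq values of 12 libraries were used, 3 for each of C18-4 shNC, C18-4 shM5, TM4 shNC and TM4 shM5, grouped by the sample titles. The authors sequenced poly(A) mRNA, ran SOAPaligner against a reference gene set and deposited RPKM per gene with 2 decimals; the genome build is not given in the sources used here. RPKM keeps no read totals, so no counting interval could be given. log2(RPKM + 0.1) was fitted with limma 3.58.1 (R 4.3.3, trend, eBayes) for genes averaging 0.5 RPKM or more across the compared libraries, and p-values were adjusted by Benjamini-Hochberg over all genes tested, with a call at an adjusted p below 0.05. The authors' own test was MARS of DEGseq, which needs reads. The interaction used all 12 libraries. The members and lists were chosen with earlier results of these data known. Genes of a list were named for the up to 4 largest called differences; P2rx4, Acta2 and the other marker genes given with values were named beyond or beside this rule after their values were seen. Some genes counted in the sums and lists are not reported here. Deviations from the group mean of same-numbered shNC and shM5 libraries correlated across genes with r = 0.439, 0.409 and 0.631 in C18-4 cells, which was taken as pairing. Number 1 with number 2 gave r = 0.341 and 0.345, and number 3 with the others gave -0.514 to -0.467. The pairing thus mainly set number 3 apart. The procedure was tested on simulated data: a planted log2 change of 1 was recovered for 83% of 100 genes in the C18-4 comparison, 73% in TM4, 66% in the interaction and 71% between the lines. The simulated noise was independent for each gene and library, with a single spread per gene over all groups. It held no shift of a whole library, so these shares do not give the recovery in the real libraries. Gene positions and sequences come from GENCODE M21 (GRCm38), and motifs and shared 35-base stretches were found in Python 3.11.15.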

Additional observations from a re-analysis of the deposited data

How the results depend on the processing

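Between the lines, the calls on Gja1 and Gjc1 and their directions held under the 12 alternatives run at an adjusted p below 0.05, and that on Panx1 was lost without C18-4 shNC replicate 1 (log2 difference -1.05). At the study's threshold, adjusted p up to 0.001 with a log2 difference of 1 or more in size, 2265 genes passed between the lines and 1 member, Gjb5, which is listed at 0 in TM4 cells, while Gja1, Gjc1 and Panx1 lost their calls, and 0 genes passed with shM5 in C18-4 cells or in the difference of effects. The call on P2rx7 between the lines (-2.88) was lost with a replicate block.

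With shM5 in C18-4 cells the 68 called genes became 4 with no filter on low values, 45 without the mean-variance trend, 143 with all 12 libraries in 1 fit, and 0 to 237 with 1 library left out. With numbers 1, 2 or 3 left out of both groups, alternatives added after seeing the data, they were 0, 0 and 3029. The replicate block gave 1386. In none of these was a member called, but directions turned: Gja1 ranged from -0.53 to 0.28 with 1 library left out, above 0 without shNC replicate 1 (0.07), shNC replicate 2 (0.06) or shM5 replicate 3, and Gjb5 from -0.32 to 0.030, above 0 without shNC replicate 2 (0.01) or shM5 replicate 3.

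With shM5 in TM4 cells 0 genes were called, and with 1 library left out 0 to 7433 genes and 0 to 3 members, the upper values being those without shNC replicate 3, and 8016 genes and 3 members without number 3 of both groups. In TM4 cells same-numbered libraries correlated with r = 0.0729, 0.0489 and 0.127, so they share only a number, and of the 3 pairs only the third correlated best with its own number. The replicate block left 0 genes called there, with 2568 at an unadjusted p below 0.05.

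For the difference of effects the 12 called genes became 27 at a pseudocount of 1, 21 with no filter, 23 with median scaling, 22 without the trend and 1 with the replicate block. With the block within each line, added later, they were 2, and 6371 with 3 members (Gja1, Gjc1 and Panx1) when TM4 shNC replicate 3 was also left out. With 1 library left out they ranged from 0 to 4477 genes and 0 to 2 members, and the difference for Gja1 from -0.094 to 0.72, below 0 without C18-4 shM5 replicate 3. The causes were not tested. RPKM gives no read number, so the sampling error of low values such as those of Gja4 is unknown.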
